A study of Homo sapiens with 27 samples.

Results

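The effect of antisense silencing of the long non-coding RNA (lncRNA) lnc-TIMM21-5 was compared between its 2 LNA GapmeRs, GapmeR1 and GapmeR2, in REH cells. The comparison takes the 6 samples whose labels name one of these oligonucleotides, of 27 samples in the series: 3 with GapmeR1 and 3 with GapmeR2, paired by replicate number, with no control sample in the test. REH is a human cell line established from BCP-ALL, acute lymphoblastic leukemia of B-cell precursors, and it has the ETV6/RUNX1 fusion gene. All 6 cultures received the oligonucleotide at 10 µM by passive uptake and were harvested at 72 h, and the replicates were done on different days. A non-targeting GapmeR (NTC, 3 samples, also 10 µM) and medium alone (2 samples) are given as reference levels only. REH is a single line, so what is measured here holds for that line.

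A GapmeR is a single-stranded antisense oligonucleotide with a DNA centre and locked nucleic acid (LNA) ends, which strengthen its binding to RNA. The DNA centre paired with RNA is recognised by RNase H, which cuts the RNA strand, also in the nucleus and so in introns of RNAs not yet spliced. RNAs other than the target that pair with the oligonucleotide well enough can be cut too, and for that reason a knockdown is often done with 2 oligonucleotides. lnc-TIMM21-5 is one of the lncRNAs studied in ETV6/RUNX1-positive BCP-ALL. It corresponds to NETO1-DT, a divergent transcript that starts close to NETO1, which encodes a transmembrane protein of glutamate receptor complexes.

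The sequences show how close the target positions of both GapmeRs are. In the lines that follow, written 5′ to 3′, the capitals mark the 8 bases that GapmeR1 and GapmeR2 share, which are the first 8 of GapmeR1 and the last 8 of GapmeR2. The target RNA, read from hg38, has the complement of those 8 bases in capitals.
GapmeR1: AATTTTGCatttggta
GapmeR2: gtcactttAATTTTGC
NETO1-DT target: taccaaatGCAAAATTaaagtgac
The target stretch lies at chr18:72881263-72881286 on the plus strand (hg38), in the last of 4 exon blocks that GENCODE v44 gives for NETO1-DT (chr18:72868388-72881404). GapmeR1 pairs with its first 16 bases and GapmeR2 with its last 16, so the sites overlap. GapmeR1 holds 4 G or C bases and GapmeR2 holds 5. The NTC oligonucleotide has 15 bases.
NTC: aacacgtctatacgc

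The 6 libraries held between 18776820 and 22750945 reads counted in genes. Of 12 markers of B-cell precursors, 11 were at 10 CPM (counts scaled to library size) or more in all 6 samples, and VPREB1 was at 0. Of 25 markers of other cells, 19 stayed under 1 CPM in all 6. The other 6 were the myeloid genes MPO (88.1 to 135 CPM) and CSF1R (1.06 to 1.56 CPM), the fibroblast markers PDGFRB (32.6 to 52.6 CPM) and COL1A1 (7.74 to 13.5 CPM), the endothelial PECAM1 (5.78 to 9.48 CPM) and the megakaryocyte ITGA2B (1.72 to 3.16 CPM). No marker differed between the GapmeRs by the test below. The largest component of variation (40.02% of the variance) set replicate 3 apart from replicates 1 and 2, and the third (16.1%) separated GapmeR1 from GapmeR2.

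Both GapmeRs left lnc-TIMM21-5 far below its level in the reference samples. With GapmeR1, NETO1-DT (ENSG00000263958) had 2, 10 and 6 counts in replicates 1, 2 and 3, or 0.107, 0.502 and 0.257 CPM. With GapmeR2 it had 7, 5 and 1 counts, or 0.337, 0.235 and 0.0452 CPM. NTC gave 1.81, 1.70 and 1.08 CPM and medium 1.08 and 2.19 CPM, so each of the 6 samples lay below each of these 5. The 16 samples with GapmeRs against other lncRNAs ranged from 0.588 to 2.61 CPM, with a median of 1.45 CPM.

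Between the GapmeRs the target level did not differ beyond the spread. The means were 0.289 ± 0.200 CPM with GapmeR1 and 0.206 ± 0.148 CPM with GapmeR2 (SD, n = 3 each), which are 18.9% and 13.4% of the NTC mean of 1.53 ± 0.390 CPM. The groups overlapped, and the level was higher with GapmeR1 in 2 of 3 pairs. The log2 fold change (GapmeR1 minus GapmeR2) was 0.53 with a standard error (SE) of 0.571 and a 95% confidence interval from -0.64 to 1.70 (edgeR quasi-likelihood test, Benjamini-Hochberg adjusted p = 0.886). A two-sided exact sign-flip permutation test over the pairs gave p = 0.75, where 3 pairs cannot go below 0.25. With 1 to 10 counts per sample the estimate is coarse, and differences within this interval were not excluded.

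**Figure D1:**
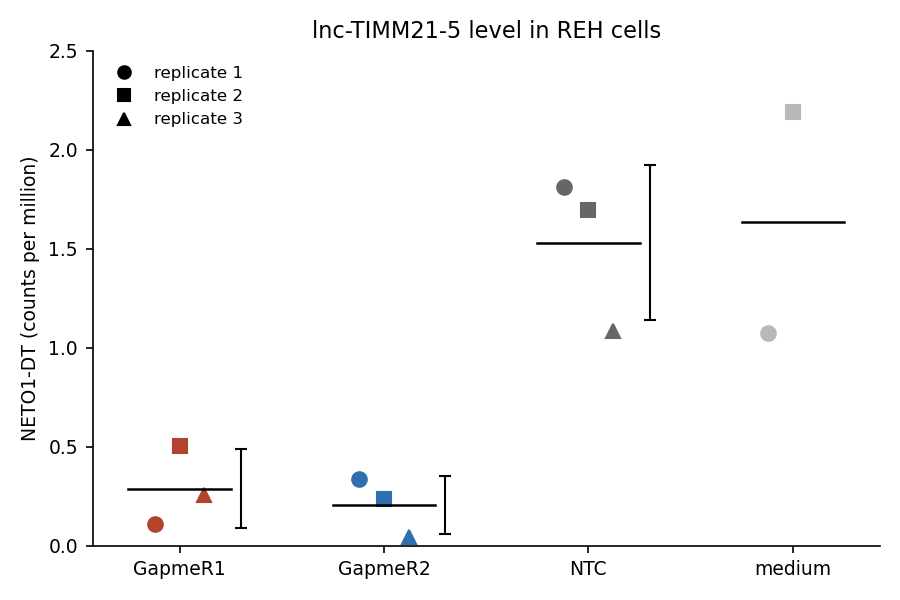
Level of NETO1-DT in CPM (linear axis from 0) in each sample with GapmeR1, GapmeR2, NTC or medium; marker shapes give the replicate number, bars the mean and whiskers the SD of the groups of 3. All 6 GapmeR samples sit at or below 0.502 CPM and all 5 reference samples at or above 1.08 CPM.

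No difference was found in the genes around the target. NETO1 (chr18:72742314-72868146, minus strand) had 31.6 ± 5.12 CPM with GapmeR1 and 31.5 ± 2.98 CPM with GapmeR2, and NTC had 31.6 ± 2.41 CPM. Its log2 fold change was -0.00 (95% confidence interval -0.13 to 0.13, edgeR adjusted p = 0.997). The lncRNA ENSG00000265579, within NETO1 on the same strand and the only other gene tested within 1 Mb, had a log2 fold change of -0.16 (SE 0.122, edgeR adjusted p = 0.820).

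Across all genes, few differed between the GapmeRs. Of 15314 genes tested, 77 (0.503%) passed an edgeR quasi-likelihood test with the replicate as a block at a Benjamini-Hochberg adjusted p under 0.05 and are named called here. Of these, 38 (0.248%) were higher and 39 (0.255%) lower with GapmeR1, and all 77 had the same sign in 3 of 3 pairs, as did 28.6% of all genes tested; calls from a test on pairs nearly fix this count. In 57 of the 77 the CPM of the groups did not overlap, which was the case in 5.94% of all genes tested. The calls came from these same samples, so less overlap than in all genes follows from the selection. The differences were mostly small: 28 of the 77 reached an absolute log2 fold change of 0.5, and 8 reached 1, whereas the median over all genes tested was 0.0615. The same fit of the 2 GapmeRs against lnc-RTN4R-1 called 4609 of 14904 genes (30.9%). Without the replicate block, 12 genes were called between the lnc-TIMM21-5 GapmeRs, all of them among the 77, and DESeq2 with the block called 33. Leaving out replicate 1 gave 47 genes and leaving out replicate 2 gave 123.

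The level in NTC, which had no part in the test, tells which GapmeR sample group stood apart. By mean log2 of CPM plus 0.1, all 39 genes lower with GapmeR1 had a GapmeR1 level farther from NTC than the GapmeR2 level, and below NTC. Of the 38 genes higher with GapmeR1, 25 had their GapmeR2 level farther from NTC and below it, and 13 had their GapmeR1 level farther from NTC and above it. So 64 of the 77 differences lay on the side of lower RNA with 1 of the GapmeRs. The same share over all genes tested was not counted, so this number describes the called genes only.

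**Figure D2:**
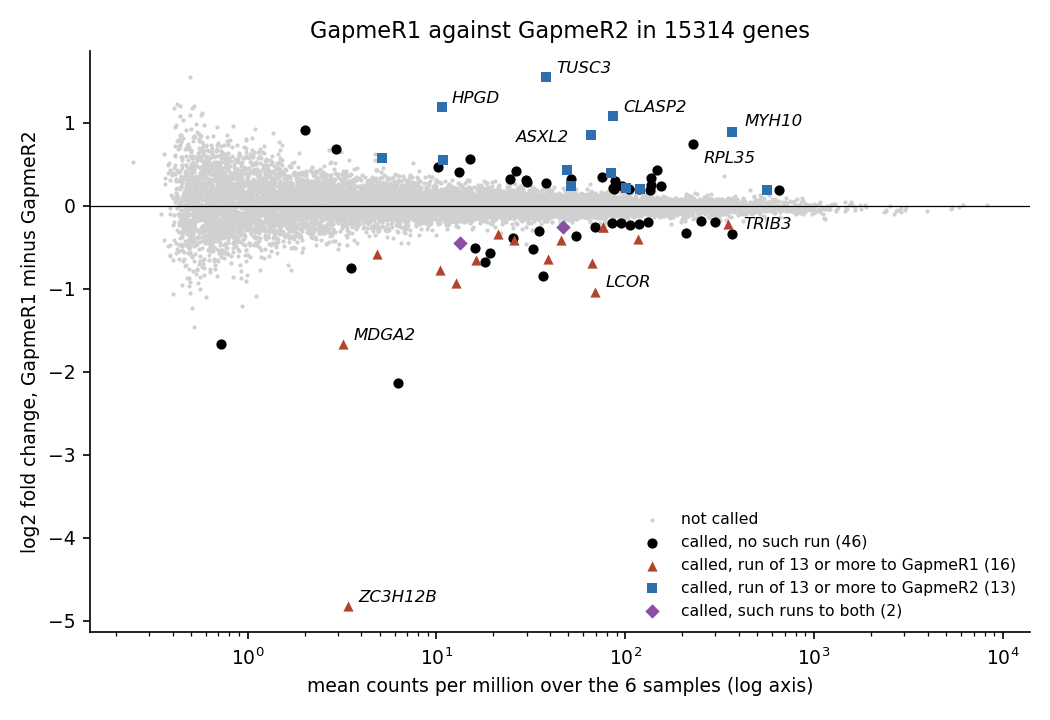
Log2 fold change (GapmeR1 minus GapmeR2) against the mean level over the 6 samples (log axis) for the 15314 genes tested; grey dots are genes not called, and colour and shape mark called genes by whether their gene body holds 13 or more unbroken bases that can pair with GapmeR1 (16 genes), GapmeR2 (13), both (2) or neither (46). Red triangles lie below 0 and blue squares above it. ZC3H12B lies lowest and TUSC3 highest among the called genes. The 46 include 2 genes without a GENCODE v44 entry, which were not searched.

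The largest difference was in ZC3H12B (chrX:65034788-65507887), which encodes a zinc-finger protein of the Regnase family of RNA-cleaving enzymes. It had 0.214, 0.301 and 0.171 CPM with GapmeR1, 6.50, 6.80 and 6.37 CPM with GapmeR2, and 6.90, 7.04 and 7.21 CPM with NTC. Every GapmeR1 sample was far below every other sample of these groups, and the log2 fold change was -4.82 (SE 0.236, edgeR adjusted p = 5.57e-15). With unstranded counts, which add reads from the opposite strand, it was -0.80 (edgeR adjusted p = 4.27e-05). In the other lncRNAs' groups ZC3H12B had mean levels from 2.16 CPM (lnc-NKX2-3-1 GapmeR1) to 6.73 CPM (lnc-NKX2-3-1 GapmeR2).

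MDGA2, a cell-surface protein of neuronal synapses, had 1.98, 1.10 and 1.498 CPM with GapmeR1 and 6.07, 4.83 and 3.79 CPM with GapmeR2, a log2 fold change of -1.67 (SE 0.174, edgeR adjusted p = 2.27e-07). Its mean with lnc-NKX2-3-1 GapmeR1 was 1.51 CPM, against 1.53 CPM with lnc-TIMM21-5 GapmeR1. LCOR, a corepressor of nuclear receptors, had 46.1, 43.2 and 46.8 CPM with GapmeR1 and 98.7, 88.2 and 92.0 CPM with GapmeR2. Its NTC level was 102, 86.8 and 91.6 CPM, far above the GapmeR1 samples and around those of GapmeR2, and its log2 fold change was -1.03 (SE 0.0498, edgeR adjusted p = 4.64e-15). UBN2, which belongs to the HIRA histone chaperone complex, had 23.8, 28.0 and 26.7 CPM with GapmeR1 and 43.4, 50.3 and 47.1 CPM with GapmeR2 (log2 fold change -0.84, SE 0.0586, edgeR adjusted p = 2.62e-11). In none of these 3 genes did the GapmeR1 and GapmeR2 samples overlap.

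LY75, an endocytic receptor of antigen-presenting cells, had 8.29, 8.99 and 8.95 CPM with GapmeR1 and 17.5, 14.7 and 17.9 CPM with GapmeR2 (log2 fold change -0.93, SE 0.0912, edgeR adjusted p = 6.18e-08). Its level is uncertain, because the readthrough gene LY75-CD302 overlaps it on the same strand and reads that fit both were not counted. CIP2A, an inhibitor of the phosphatase PP2A, had 53.7, 55.6 and 43.4 CPM with GapmeR1 and 81.5, 93.2 and 71.4 CPM with GapmeR2 (log2 fold change -0.69, SE 0.0506, edgeR adjusted p = 8.71e-11). The processed pseudogene RPL13P8 (chr3:108543367-108543875) lies past the 3′ end of CIP2A (chr3:108549864-108589644) on the same strand and was lower too, with a log2 fold change of -0.75 (SE 0.160, edgeR adjusted p = 0.0182), a call not made by DESeq2. As a copy of RPL13 it shares reads with other loci and is uncertain.

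The autophagy enzyme gene ATG10 had 7.43, 8.44 and 7.32 CPM with GapmeR1 and 13.6, 13.98 and 12.1 CPM with GapmeR2 (log2 fold change -0.77, SE 0.0940, edgeR adjusted p = 4.48e-06), and its mean with lnc-NKX2-3-1 GapmeR1 was 6.95 CPM, against 7.73 CPM with lnc-TIMM21-5 GapmeR1. The ubiquitin ligase gene NEDD4 fell by 0.41 on the log2 scale with GapmeR1 and the stress kinase gene MAP3K20 by 0.25, both with samples that did not overlap. KIAA1958 (-0.64) and ENSG00000231025 (-0.67), for which GENCODE v44 has no entry, were also among the genes lower with GapmeR1. A Y RNA copy, ENSG00000212556 (chr3:127202372-127202473, minus strand), had 1.98, 2.31 and 2.61 CPM with GapmeR1 and 10.2, 9.90 and 10.4 CPM with GapmeR2, a log2 fold change of -2.13 (SE 0.131, edgeR adjusted p = 1.31e-12). It lies inside the lncRNA ENSG00000287784 on the same strand, which GENCODE v44 lists and the deposited tables do not, and it belongs to a family of near-identical copies, so its source is uncertain.

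Genes lower with GapmeR2 were led by TUSC3 (chr8:15417215-15766649), a subunit of the complex that attaches N-linked sugars to proteins. TUSC3 had 58.5, 53.7 and 58.3 CPM with GapmeR1, 19.9, 17.3 and 21.0 CPM with GapmeR2, and 61.9, 50.5 and 56.5 CPM with NTC. GapmeR1 and NTC samples overlapped, and all 3 GapmeR2 samples were below both, with a log2 fold change of 1.55 (SE 0.0612, edgeR adjusted p = 7.85e-17). The mean was also lower with GapmeR2 than in each of the other 9 groups of the series, of which the lowest was at 42.0 CPM.

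CLASP2, which stabilises microtubule ends, had 126, 115 and 110.5 CPM with GapmeR1 and 56.9, 58.5 and 50.6 CPM with GapmeR2 (log2 fold change 1.09, SE 0.0486, edgeR adjusted p = 1.21e-15). MYH10, the heavy chain of non-muscle myosin IIB, had 493, 513 and 425 CPM with GapmeR1 and 266, 278 and 229 CPM with GapmeR2 (log2 fold change 0.89, SE 0.0418, edgeR adjusted p = 2.73e-15). NTC had 122 ± 7.52 CPM of CLASP2 and 477 ± 48.6 CPM of MYH10, so that the GapmeR1 means lay within 1 SD of NTC for both.

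HPGD, the enzyme that inactivates prostaglandins, had 16.95, 14.9 and 12.5 CPM with GapmeR1 and 7.75, 6.52 and 5.24 CPM with GapmeR2 (log2 fold change 1.19, SE 0.0950, edgeR adjusted p = 6.42e-10). ASXL2, a chromatin regulator related to Polycomb, had 83.9, 86.5 and 84.5 CPM with GapmeR1 and 42.3, 51.6 and 47.8 CPM with GapmeR2 (log2 fold change 0.85, SE 0.0529, edgeR adjusted p = 1.72e-12). In both genes the GapmeR2 samples were all below the GapmeR1 and the NTC samples. The sodium-calcium exchanger gene SLC8A1 (0.58), the methyl-CpG-binding domain gene MBD5 (0.56), PEX5L (0.91) and the lncRNA ENSG00000277969 (0.68) were called with the same direction at lower levels, between 1.39 and 18.0 CPM in their group means. Of these, SLC8A1, PEX5L and ENSG00000277969 were not called by DESeq2 or when replicate 1 was left out. Some GapmeRs against other lncRNAs had lower means than GapmeR2. MBD5 had 8.38 CPM with lnc-RTN4R-1 GapmeR1, against 12.2 CPM. SLC8A1 had 1.65 CPM with lnc-NKX2-3-1 GapmeR1, against 4.12 CPM. PEX5L had 1.33 CPM with lnc-ASTN1-1 GapmeR1, against 1.39 CPM. The mean of ENSG00000277969 was lowest with lnc-TIMM21-5 GapmeR2.

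**Figure D3:**
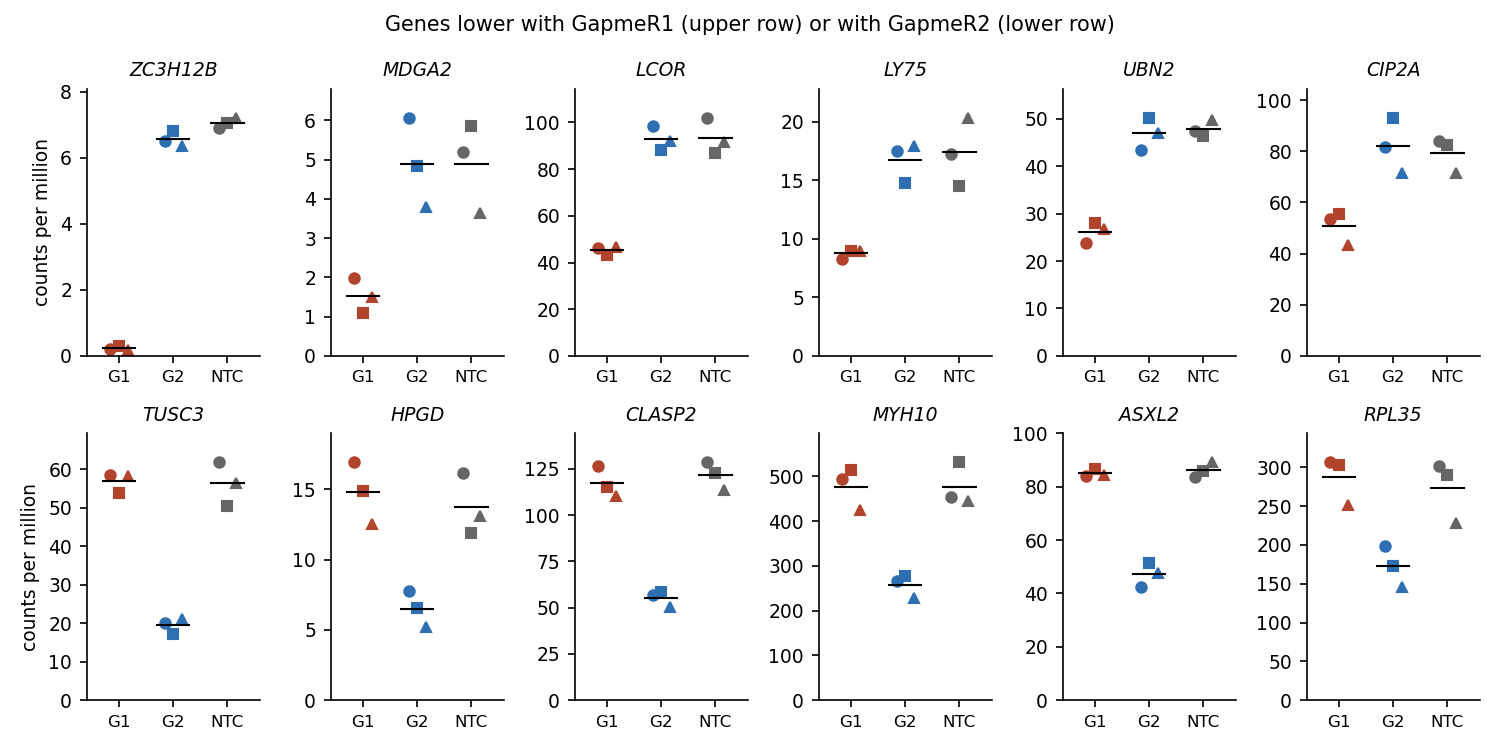
Level in CPM (linear axes from 0) of 12 genes in each sample with GapmeR1 (G1), GapmeR2 (G2) and NTC; marker shapes give replicates 1 (circle), 2 (square) and 3 (triangle), and bars the mean. In the upper panels the 3 GapmeR1 samples lie below GapmeR2 and NTC, and in the lower panels the 3 GapmeR2 samples lie below GapmeR1 and NTC.

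The sense strand of every annotated gene was searched for stretches that pair with either GapmeR. In a match over 16 bases with at most 1 mismatch, GapmeR1 had a site in 37 tested genes, of which 7 were called, all lower with GapmeR1. GapmeR2 had one in 20 tested genes, of which 4 were called, all lower with GapmeR2. The shares called were 18.9% and 20.0%, beside 0.503% of all genes. None of the 37 was called higher with GapmeR1 by edgeR or DESeq2, although 1 was at an unadjusted p under 0.05 (11 lower), and none of the 20 was called lower with GapmeR1 by either tool, with 0 at an unadjusted p under 0.05 (8 higher). Among all 15314 genes tested, 482 were lower and 696 higher with GapmeR1 at that p. Genes with such sites were long, with median spans of 192581 and 210410 bases against 25650 for all genes tested, and the part of gene length in these shares was not tested.

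Sites with 1 mismatch are shown for 10 of the 11 called genes that have one, so that the paired bases can be seen beside the values; that of TUSC3 is not shown. They are RNA-sense sequences from hg38, 5′ to 3′, with the mismatched base in capitals, and the positions given after them count from 1 at the 5′ end of the GapmeR.
Site of GapmeR1 in ZC3H12B: Aaccaaatgcaaaatt
Site of GapmeR1 in ATG10: Caccaaatgcaaaatt
Site of GapmeR1 in MDGA2: taccaaatgcaaaatG
Site of GapmeR1 in CIP2A and MAP3K20: taccaaatgcaaaaAt
Site of GapmeR1 in NEDD4: taccaaatgcaaaTtt
Site of GapmeR1 in LY75: taAcaaatgcaaaatt
Site of GapmeR2 in MYH10: Tcaaaattaaagtgac
Site of GapmeR2 in HPGD: Acaaaattaaagtgac
Sites of GapmeR2 in MBD5: gcaaaattGaagtgac and gcaaaattaCagtgac
All 7 GapmeR1 sites lie in introns, at chrX:65082230-65082245 (plus strand, ZC3H12B), chr5:82253502-82253517 (plus, ATG10), chr14:47580421-47580436 (minus, MDGA2), chr3:108572360-108572375 (minus, CIP2A), chr2:173145061-173145076 (plus, MAP3K20), chr15:55891567-55891582 (minus, NEDD4) and chr2:159869861-159869876 (minus, LY75). The MYH10 site (chr17:8573769-8573784, minus strand) lies in an annotated exon, and those of HPGD (chr4:174517346-174517361, minus) and MBD5 (chr2:148358830-148358845 and chr2:148369752-148369767, plus) in introns. TUSC3 has an intronic site for GapmeR2 with 1 mismatch, at position 10.

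The place of the mismatch was read off for each gene, with no test. In all 7 called genes the single mismatch to GapmeR1 was within 3 bases of an end, at position 1 in MDGA2, 2 in CIP2A and MAP3K20, 3 in NEDD4, 14 in LY75 and 16 in ZC3H12B and ATG10. Of the 28 genes with 1 mismatch that were not called, 13 had it within 3 bases of an end. For GapmeR2 the called genes were mixed, with position 16 in MYH10 and HPGD, position 10 in TUSC3 and positions 8 and 7 in MBD5. TUSC3 and MBD5 also hold longer unbroken paired stretches to GapmeR2 at other sites, of 13 and 12 bases. LY75 likewise holds one of 14 bases to GapmeR1 at another site. Which site goes with the lower level of these genes was not tested.

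The target has a match over all 16 bases to each GapmeR. Its level therefore does not show whether such a match goes with a difference between them. Apart from the target, DNM3, which encodes a dynamin of membrane fission, was the only tested gene with one, an intronic GapmeR1 site (chr1:171968872-171968887). DNM3 had 1.39, 1.61 and 1.84 CPM with GapmeR1 and 2.41, 1.92 and 2.57 CPM with GapmeR2. The groups did not overlap, but the log2 fold change of -0.51 (SE 0.196) did not pass (edgeR adjusted p = 0.469, unadjusted p = 0.0153).

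Counted by the longest unbroken stretch of paired bases, a definition chosen after the data were seen, the share of genes called was larger for longer stretches to both GapmeRs, as a description with no test. Of all genes tested 0.255% were called lower and 0.248% higher with GapmeR1. Of the 14409 in which no stretch of 12 or more to GapmeR1 was found, 14 were lower and 34 higher. These include 209 genes without a GENCODE v44 entry, which were not searched. Among genes whose longest stretch to GapmeR1 was 12 bases, 7 of 757 were called lower and 4 higher with GapmeR1. At 13 bases 8 of 121 were lower, at 14 bases 7 of 19, and at 15 or 16 bases 3 of 8, with none called higher. At 14 or more bases 20 of 27 log2 fold changes were negative, with a median of -0.34, and no gene was higher at an unadjusted p under 0.05 or by DESeq2. At 13 or more, 6 of 148 were higher at an unadjusted p under 0.05 and 49 lower. Among all 15314 genes tested, 696 were higher and 482 lower at that p.

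For GapmeR2 the calls lay mostly in the opposite direction. Of the 14607 genes in which no stretch of 12 or more to GapmeR2 was found, 21 were lower with GapmeR2 and 35 lower with GapmeR1. The 209 genes that were not searched are among these too. For stretches of 12, 13, 14 and 15 or 16 bases, 4 of 528, 5 of 146, 6 of 28 and 2 of 5 genes were lower with GapmeR2, and 2, 1, 1 and 0 were lower with GapmeR1. The 2 genes lower with GapmeR1 despite 13 or more bases to GapmeR2 were SYNE1, a nuclear envelope protein gene, and KIF27, a kinesin gene, and both also hold such a stretch to GapmeR1. Of 11 tested genes with 13 or more bases to both GapmeRs, these 2 were the ones called.

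Several of the strongest changes outside the list with 1 mismatch had such stretches. LCOR has 14 paired bases to GapmeR1 in an intron, KIAA1958 has 13, and CLASP2 and ASXL2 have 14 and 13 to GapmeR2, all intronic. Their sequences show unpaired bases, in capitals, at the ends of the sites.
Site of GapmeR1 in LCOR: taccaaatgcaaaaGA
Site of GapmeR1 in KIAA1958: GaccaaatgcaaaaAt
Site of GapmeR2 in CLASP2: CAaaaattaaagtgac
Site of GapmeR2 in ASXL2: TGCaaattaaagtgac
They lie at chr10:96927543-96927558 (plus strand, LCOR), chr9:112581233-112581248 (plus, KIAA1958), chr3:33639531-33639546 (minus, CLASP2) and chr2:25794918-25794933 (minus, ASXL2). The lncRNA ENSG00000287784 around the Y RNA copy holds 14 bases to GapmeR1 in an intron, 1342 bases upstream of that copy. In 46 of the 77 called genes, however, no stretch of 13 or more to either GapmeR was found, among them RPL35, UBN2 and the list members described next. These 46 include 2 genes without a GENCODE v44 entry, which were not searched.

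**Figure D4:**
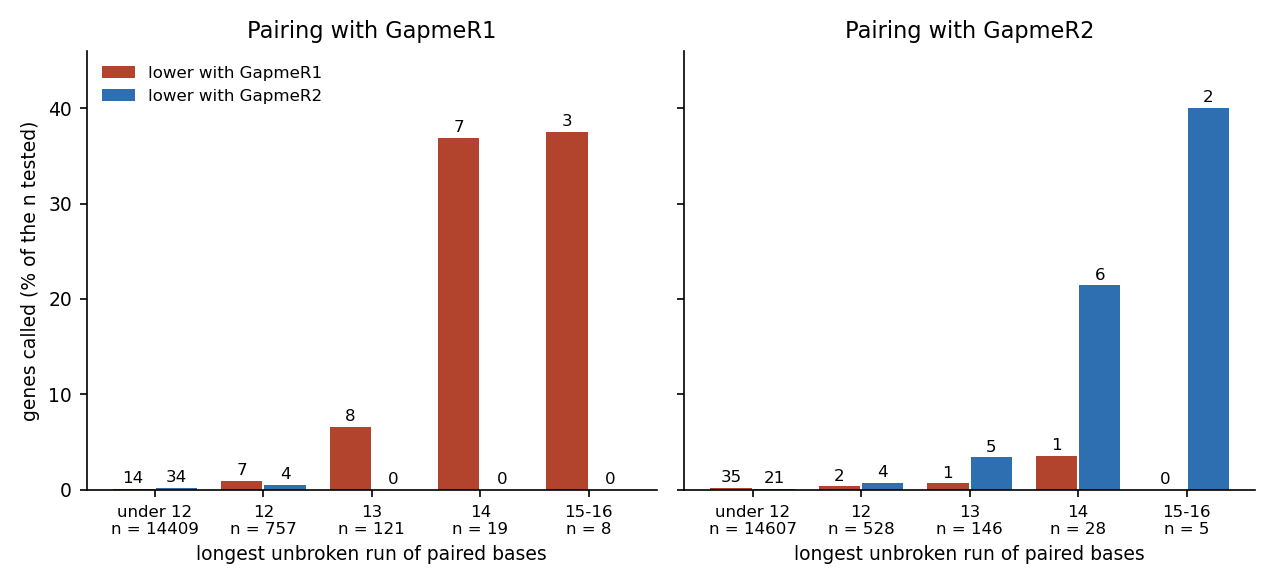
Percent of tested genes called lower with GapmeR1 (red) or lower with GapmeR2 (blue), on a linear axis from 0, by the longest unbroken run of bases in the gene body that can pair with GapmeR1 (left) or GapmeR2 (right); numbers on the bars are genes called and n the genes tested. Red bars are taller to the right of the left panel, from 7 of 757 at 12 bases to 7 of 19 at 14, and blue bars in the right panel, from 4 of 528 to 6 of 28.

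Few members of the pathway gene lists were called, though their share was above that of all genes. Members and lists had been chosen with earlier results of these data known. Over 16 lists with 428 genes tested, 9 genes were called (2.10%, beside 0.503% of all genes), 6 higher and 3 lower with GapmeR1, in 5 of the lists. All 9 lost the call without the replicate block, where 9 of the 428 were at an unadjusted p under 0.05 (249 of all genes tested) and 0 were called by edgeR. In counts simulated with replicate effects and the block fit's dispersions, the fit without the block recovered 0% of genes changed by 0.3 (log2). It recovered 76.5% of those changed by 1. Why these 9 calls were lost was not tested. Without replicate 1 there were 3 called and without replicate 2 there were 14.

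The integrated stress and unfolded protein responses adjust translation and amino acid supply when protein folding or nutrients are limited. Of 31 members tested, 3 were lower and none higher with GapmeR1, while the median log2 fold change was 0.05 (0.00 over all genes). TRIB3, a pseudokinase induced by the transcription factor ATF4, had 291, 239 and 452 CPM with GapmeR1, 419, 281 and 536 CPM with GapmeR2, and 466, 308 and 556 CPM with NTC. Medium alone had 381 and 200 CPM. The groups overlapped across replicates, but TRIB3 was lower with GapmeR1 in 3 of 3 pairs, with a log2 fold change of -0.33 (SE 0.0487, edgeR adjusted p = 0.000126, and 0.130 by DESeq2). ASNS, the asparagine synthetase gene, and SHMT2, a mitochondrial enzyme of serine metabolism, had log2 fold changes of -0.23 and -0.19 (edgeR adjusted p = 0.0368 and 0.0488). DESeq2 called none of the 31, of which 16 were at an unadjusted p under 0.05 in edgeR, 9 higher and 7 lower with GapmeR1, so the list did not move one way. Among all 15314 genes tested, 1178 were at that p.

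Immediate early genes, which are transcribed within minutes of a stimulus, and NF-kB targets had a median log2 fold change of 0.15, with 23 of 26 above 0 and 2 called. At an unadjusted p under 0.05 in edgeR, 9 were higher and 0 lower with GapmeR1. Over all genes tested, 696 were higher and 482 lower at that p. JUN, a subunit of the AP-1 transcription factor, had 57.0, 40.03 and 74.5 CPM with GapmeR1, 41.7, 27.1 and 71.0 CPM with GapmeR2, and 34.8, 22.997 and 51.4 CPM with NTC (log2 fold change 0.33, SE 0.0711, edgeR adjusted p = 0.0328). Its levels varied more between replicates than between GapmeRs, and the groups overlapped. The zinc-finger gene KLF6 had a log2 fold change of 0.21 (SE 0.0466, edgeR adjusted p = 0.0291). DESeq2 called neither.

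Sterol and fatty acid synthesis genes were above 0 in 27 of 30, with a median log2 fold change of 0.06. At an unadjusted p under 0.05 in edgeR, 9 were higher and 0 lower with GapmeR1. HMGCS1, which makes the precursor of mevalonate, was the member called, at 670, 769 and 636 CPM with GapmeR1 and 572, 706 and 549 CPM with GapmeR2 (log2 fold change 0.19, SE 0.0415, edgeR adjusted p = 0.0236). The groups overlapped, and it was higher with GapmeR1 in 3 of 3 pairs. It was called by DESeq2 too.

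Immunoglobulin segments, whose reads are split among near-identical copies and are uncertain, had a median log2 fold change of 0.21 over 10 tested. At an unadjusted p under 0.05 in edgeR, 6 were higher and 0 lower with GapmeR1. The lambda variable segment IGLV3-21 had 81.7, 96.9 and 74.2 CPM with GapmeR1 and 70.2, 63.2 and 63.8 CPM with GapmeR2 (log2 fold change 0.35, SE 0.0614, edgeR adjusted p = 0.00329), with no overlap. The lambda constant segment IGLC3 had a log2 fold change of 0.24 (edgeR adjusted p = 0.0126). Neither was called by DESeq2.

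Among 40 ribosomal protein genes, RPL35 stood alone. It had 307, 303 and 252 CPM with GapmeR1, 198, 173 and 146 CPM with GapmeR2, and 301, 290 and 228 CPM with NTC. The GapmeR2 samples were all below the others, with a log2 fold change of 0.74 (SE 0.0447, edgeR adjusted p = 9.95e-13, and 0.0784 without the replicate block). The median of the list was -0.02, and RPL35 was its only member at an unadjusted p under 0.05. Ribosomal protein genes have many processed pseudogenes, so the level of RPL35 is uncertain, and no stretch of 12 or more bases that pairs with either GapmeR was found in it.

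The other 11 lists, with 293 genes tested once each, had no member called by edgeR or DESeq2. Of the 293, 31 were at an unadjusted p under 0.05 in edgeR, beside 1178 of all 15314 genes tested. They cover the handling of oligonucleotides (28 tested), nucleic acid sensing (23), interferon-stimulated genes (35), p53 targets (27), glycolysis and hypoxia (30), the cell cycle (41), the BCL2 family (16), B-lineage transcription factors (35), the pre-B receptor and surface antigens (32), mitochondrially encoded mRNAs (13) and replication-dependent histones (16). Of the oligonucleotide-handling list, which includes the RNase H genes, 0 of 28 reached an unadjusted p under 0.05, and the log2 fold changes ranged from -0.10 to 0.10. Of the 35 B-lineage transcription factors, 6 were higher and 0 lower with GapmeR1 at an unadjusted p under 0.05. The nearest to a call was MCM6, a subunit of the replicative helicase, at -0.17 (edgeR adjusted p = 0.0708). The interferon-stimulated gene IFI44L had 3.797, 3.72 and 4.79 CPM with GapmeR1 and 2.02, 2.63 and 3.70 CPM with GapmeR2, samples that barely separated (log2 fold change 0.56, SE 0.155, edgeR adjusted p = 0.133). The smallest p of the remaining lists belonged to NEAT1 (0.09), TRAF6 (0.15), BTG2 (0.15), SLC2A3 (0.25), HRK (0.27), BACH2 (0.16), MS4A1 (-0.28), MT-ND3 (0.14) and H4C9 (-0.71), as log2 fold changes at edgeR adjusted p between 0.102 and 0.654.

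**Figure D5:**
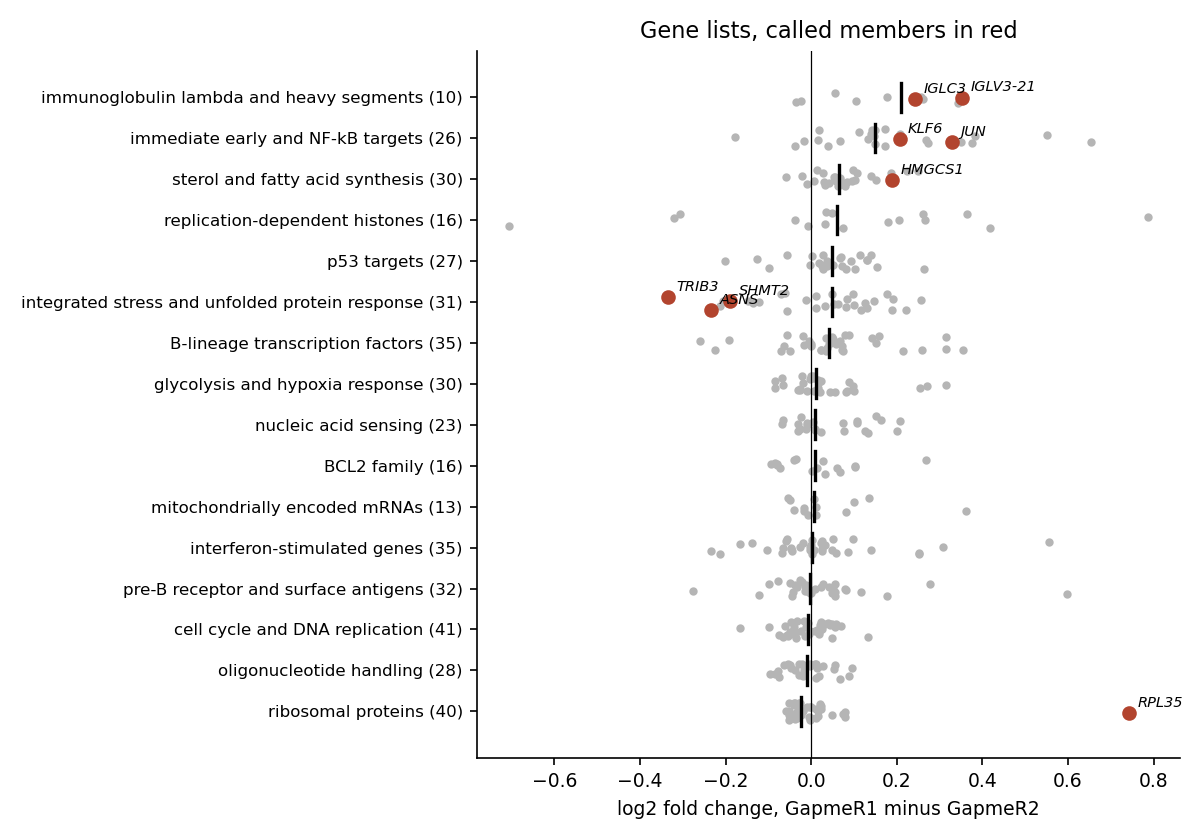
Log2 fold change (GapmeR1 minus GapmeR2) of each tested member of 16 gene lists, with the number tested in brackets; red dots are called members, grey dots the others, and black bars the list median. Lists are ordered by median, from -0.02 for ribosomal proteins, where RPL35 lies apart at 0.74, to 0.21 for immunoglobulin segments.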

How the data were processed

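RNA sequencing counts came from 27 samples of REH cells. The authors aligned reads to hg38 with STAR, and the deposited values are raw counts of reads per gene in 3 columns (unstranded and each strand), with no normalisation. Column 4, which held 95.2% to 95.4% of both strand columns, was used, and 74.3% to 76.2% of reads were assigned to a gene; the first 4 lines, which name no gene, were left out. The annotation release is not given in the sources used here. The labels state ribodepletion and the methods poly-A selection, so which RNAs could be seen is uncertain. Reads mapped to several places are not counted. GENCODE v44 matched 56434 of 60619 identifiers (4185 did not match) and gave symbols and hg38 coordinates. The name lnc-TIMM21-5 was tied to NETO1-DT by the study's transcript list, and GapmeR sequences by its oligonucleotide list.

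edgeR (4.0.16, R 4.3.3) fitted the 6 samples with TMM normalisation, filterByExpr (minimum count 10, minimum total 15; target kept), the replicate number as a block and robust quasi-likelihood F tests. P-values were adjusted over all genes by the Benjamini-Hochberg method (threshold 0.05). SEs were derived from the F statistics. CPM used TMM library sizes of all 27 samples. Samples were paired by replicate number. Per the methods replicates were done on different days, but that equal numbers share a day is not stated. Deviations from group means correlated at 0.269, 0.355 and 0.559 for equal numbers, and from -0.372 to 0.0561 otherwise. Deviations within a group cancel out, so these correlations are not independent of each other. With the block, p-values rest on the spread between these cultures that is left after the replicate effect is taken out.

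Sites were sought in hg38 gene bodies on the sense strand (at most 2 mismatches, or an unbroken run of at least 12). The 209 tested genes without a GENCODE v44 entry were not searched and were counted as holding no site. Named are the target and genes within 1 Mb, the 10 largest changes each way among called genes with 1 CPM or more and the same sign in all pairs, the 10 smallest adjusted p, up to 5 called members of each list (else the smallest p), and genes with a full match or a call with 1 mismatch. KIAA1958, SYNE1 and KIF27 fall outside these rules and were named after their values were seen. Members and lists were chosen with earlier results of these data known. Alternatives were no block, DESeq2 (1.42.0), RLE, no filter, at least 10 counts in every sample, one fit over every sample, leaving out each replicate in turn, and the unstranded column. In simulated counts for this comparison, 200 of 15135 genes were changed by 0.3 (log2). The counts were drawn with replicate effects and the block fit's dispersions, so they follow the model of that fit. The block fit recovered 56% with 4.27% of calls false, and the fit without the block recovered 0%. With 200 of 15128 changed by 1, the block fit recovered 91% with 9.45% false. The fit without the block then recovered 76.5% with 0% false.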

Additional observations from a re-analysis of the deposited data

How the results depend on the processing

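The number of genes called rested on the replicate block. Against 77, no replicate block called 12 (249 at an unadjusted p under 0.05), DESeq2 33 and no low-count filter 130, and fits without 1 replicate called 47 (without replicate 1) to 123 (without replicate 2). Of the 428 list members, 9 were called, against 0 with no replicate block (9 at an unadjusted p under 0.05), 2 by DESeq2, 18 with no low-count filter, 3 in one fit of all samples, and 3 (without replicate 1) to 14 (without replicate 2) in the fits that left out a replicate. Of 11 called genes with at most 1 mismatch, 6 were called with no replicate block; counting other sites gave 0 of 2 genes with 0 mismatches (DNM3 at an unadjusted p of 0.0153; DESeq2 0), 34 of 1045 with at most 2, 1 of 5 with at most 1 in exons, and 43 of 1448, 31 of 316, 18 of 58 and 5 of 12 with unbroken runs of at least 12, 13, 14 and 15, chosen after seeing the data. The cause of these moves was not tested, beyond the smaller or larger sets themselves.

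TUSC3, CLASP2, MYH10, LCOR, ENSG00000212556, ASXL2, UBN2, HPGD, KIAA1958, LY75 and MDGA2 were called under all 10 alternatives. ZC3H12B kept its call wherever it was tested, but with unstranded counts its log2 fold change was -0.80 in place of -4.82 (-5.04 to -4.65 under the others; the cause was not tested), and its counts were too low for the filter of at least 10 counts in every sample. Of the 30 named genes called, 19 lost the call with no replicate block and 12 by DESeq2, and 0 reversed. Among those not called, NETO1 changed sign with no replicate block (0.0034), no low-count filter (0.0042) and in the fits without 1 replicate (-0.068 to 0.060), and H4C9 with unstranded counts (3.46e-06), each by less than its SE; the cause was not tested. The target's log2 fold change ranged from 0.05 to 1.43 without 1 replicate. SLC8A1, PEX5L, RPL13P8 and ENSG00000277969 lost the call with no replicate block, by DESeq2 and without at least 1 replicate (RPL13P8 and SLC8A1 replicates 1 and 3, PEX5L 1 and 2, ENSG00000277969 each of 3). Low counts limit the target, at 1 to 10 per sample.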
